A study of Mus musculus with 2 samples.

Results

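The 10 genes described here encode the granins (Chga, Chgb, Scg2 and Scg3) and the proteins that cut and finish peptide prohormones (Pcsk1, Pcsk2, Scg5, Pcsk1n, Cpe and Pam). They were taken by symbol from a table of 47069 mouse genes, and each symbol matched 1 row. All 10 passed the limit used for comparisons across genes, a mean of 1 CPM (counts scaled to a library total of 1000000). The data were bulk poly(A) RNA-seq of primary pituitary cells of randomly cycling female C57BL/6 mice aged 10 to 12 weeks. The glands were dissociated with collagenase and pancreatine, and the cells, about 500000 to 700000 from 5 pooled pituitaries in a sample of the study, went into the reagent at once. One sample was stored in RNA-Best, a buffer that stabilizes RNA while leaving single cells whole, and the other in RNAlater, an established RNA stabilizer that served as the reference. Apart from the reagent, the labels describe both samples alike. Each group held 1 library, so there was no replicate error, no test between the reagents was possible, and the reagent cannot be told apart from the pool of animals or the library. Intervals are at the 95% level and cover counting error alone, as if all counts were independent. PCR copies of a molecule are not, so the intervals may be too narrow even for that error.

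Peptide hormones are made as larger precursors that enter the regulated secretory pathway. Granins are acidic proteins that aggregate with hormones in the trans-Golgi network and help to form dense-core granules. Inside the acidifying granule, the convertases PC1/3 (Pcsk1) and PC2 (Pcsk2) cut precursors after pairs of basic residues, carboxypeptidase E (Cpe) trims the exposed basic residues, and the copper enzyme peptidylglycine alpha-amidating monooxygenase (Pam) turns a C-terminal glycine into an amide. In the pituitary, PC1/3 releases corticotropin from proopiomelanocortin (Pomc) in corticotropes, and PC2 cuts it further to melanocyte-stimulating hormone in melanotropes of the intermediate lobe.

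Promoters are shown first because a shared element is a feature that the choice of genes did not use. The RefSeq promoter table on GRCm38.p6, with 250 bases before each annotated start and 50 after it, held 9 of the 10 genes. These 9 genes had 10 promoters. The palindromic cAMP response element TGACGTCA was found in 3 of these 9 genes and in 1.79% of all 32817 promoters of the same length, searched on both strands. A gene was counted if any of its promoters matched, whereas the share of all is per promoter, so the 2 are not quite alike. In Scg2, Chgb and Pcsk1 its first base lay 68, 72 and 78 bases before the RefSeq start. The GENCODE gene models, used for all other coordinates, start elsewhere. By them the element lay 47 bases before the start of Pcsk1, but in an exon of Scg2, 26 bases after the start, and in an exon of Chgb, 292 bases after it. The Chga promoter lacked the whole element but held its first 5 letters, TGACG, 44 bases before the RefSeq and 72 before the GENCODE start. This shorter motif was searched by itself and was found in 20.8% of all promoters on either strand. In Chga the base after it, T, also matched the element. The shorter motif was present in 7 of the 9 genes, the 3 with the whole element included. The windows below run 5′ to 3′ on the gene's strand, with the matched letters in capitals. A match of letters is a description and not evidence of a bound factor.

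Scg2, chr1:79440076-79440105, minus strand: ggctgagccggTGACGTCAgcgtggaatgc

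Chgb, chr2:132781559-132781588, plus strand: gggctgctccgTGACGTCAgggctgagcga

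Pcsk1, chr13:75089768-75089797, plus strand: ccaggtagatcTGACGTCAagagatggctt

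Chga, chr12:102554886-102554912, plus strand: gggcggtcctaTGACGtaatttcctgg

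The libraries held 53915047 (RNA-Best) and 44917492 (RNAlater) counts in genes, so a count of 0 would allow up to 0.0556 and 0.0668 CPM, far below every gene described here. All 7 hormone subunit genes that define endocrine pituitary cells were counted, from 52.9 and 31.6 CPM for Tshb to 235654 and 172302 CPM for Prl, with RNA-Best given first here and in all pairs of values below. The libraries also differed in markers of cells other than the endocrine ones. Summed over the whole list, 10 endothelial markers took 430 and 813 CPM, 10 pericyte and fibroblast markers 608 and 815 CPM, 7 posterior lobe markers 134 and 237 CPM, and 7 stem and folliculostellate markers 169 and 253 CPM. The 10 macrophage markers took 204 and 193 CPM, although 6 of them were lower in RNA-Best and 4 higher. The 5 erythroid genes took 3200 and 1130 CPM, and no marker of any list was at 0 in both libraries. The part of these differences in the results below was not tested. In bulk samples, fewer cells of a type and less RNA per cell cannot be told apart. The sums were also not adjusted for transcript length, with which the libraries differed.

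Although single genes differed, the summed level of the 10 genes was almost the same in both libraries. Together they took 1.213% of all RNA-Best counts (1.210% to 1.216%, Clopper-Pearson) and 1.214% of all RNAlater counts (1.211% to 1.217%), which is 12132 and 12138 CPM. Chgb alone made up 53.5% and 58.2% of these sums. Without Chgb, the other 9 genes took 0.564% (0.562% to 0.566%) in RNA-Best and 0.507% (0.505% to 0.509%) in RNAlater. By CPM, a lower Chgb was thus set against a higher sum of the others, although of all 10 genes only 4 were higher and 6 lower. The direction of Chgb depended on the scaling, as given below. By role, the 4 granins took 9109 and 9458 CPM, Pcsk1 and Pcsk2 with their binding proteins Scg5 and Pcsk1n 1781 and 1462 CPM, and Cpe with Pam 1242 and 1218 CPM. Prl and Gh took 29.7% of counts in RNA-Best and 23.2% in RNAlater, and with both hormone genes left out of the total the 10 genes took 1.73% and 1.58%.

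**Figure D1:**
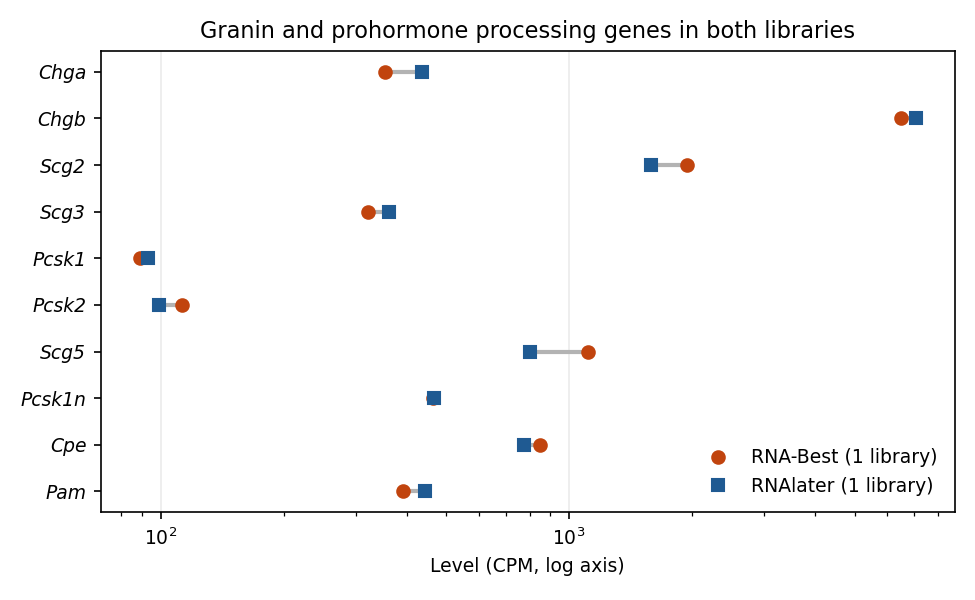
Level of each gene in CPM (horizontal log axis) in the RNA-Best library (circles) and the RNAlater library (squares), with a grey line joining both values. Chgb lies highest at 6492 and 7069 CPM, Pcsk1 and Pcsk2 lie lowest between 88.8 and 113 CPM, and Scg5 shows the widest gap, with RNA-Best higher.

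Levels of different genes were compared per kilobase of the longest annotated transcript. Chgb was far above the others, at 2369 CPM per kb in RNA-Best and 2580 in RNAlater. Scg5 (923 and 664 CPM per kb) and Scg2 (772 and 632) followed, and their ranges over the 2 libraries overlapped. Both encode soluble secretory proteins. Cpe stood at 401 and 366 CPM per kb. Pcsk1n (212 and 213) and Chga (188 and 232) changed places between the libraries, so their order is not set by these data. Scg3 (135 and 152 CPM per kb) and Pam (95.7 and 108, or 33.0 and 37.3 per kilobase of merged exons) came next. The convertases were lowest, with Pcsk2 at 23.8 and 21.02 CPM per kb and Pcsk1 at 17.6 and 18.5. Per kilobase of merged exons, Pcsk1 (15.8 and 16.6) instead stood above Pcsk2 (14.2 and 12.5), Scg2 above Scg5 (711 and 511), and Pcsk1n above Chga (129 and 158) in both libraries, so the order within these pairs depends on the length assigned. The cutting enzymes were thus counted at levels well below those of the proteins that bind them.

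None of the 10 genes differed by 1.5-fold in either direction between the libraries. Over the 16504 genes past the limit of 1 CPM, RNA-Best was higher by 1.5-fold or more for 3.22% and lower by as much for 18.8%, and 0.273% and 4.99% passed 2-fold in these directions. The log2 ratio (RNA-Best over RNAlater, on CPM + 0.5) was above 0 for 4 of the 10 genes, against 33.0% of all genes. Its median was -0.04 over the 10 genes and -0.18 over all genes. Because the median of all genes lay below 0 and moved by 0.12 to 0.17 under other scalings, each ratio is also given relative to that median. By this measure 8 of the 10 genes lay above it, against 50% of all genes by construction. Of these 8, Pam stood practically at it. Scg3 also stood practically at it, just below, and Chga lay 0.12 below. Relative to it, Scg5 was the 1 gene at least 1.5-fold higher and none was 1.5-fold lower, against 7.80% and 11.02% of all genes.

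Among the granins, Scg2 was higher in RNA-Best and the other 3 were lower in CPM. Scg2 (ENSMUSG00000050711.7, chr1:79434669-79440120, GRCm38), the secretogranin II precursor of secretoneurin, reached 1941 CPM against 1589 CPM in RNAlater. Its log2 ratio was 0.29 (interval 0.27 to 0.30), or 0.46 relative to all genes, and its counts were whole numbers in both columns. Scg2 was higher under each of the 3 other scalings as well.

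Chgb, Scg3 and Chga were lower in RNA-Best by CPM. Chgb (ENSMUSG00000027350.8, chr2:132781278-132795079), which encodes chromogranin B, stood at rank 5 of all genes in each library, with 6492 and 7069 CPM. Its log2 ratio of -0.12 (-0.13 to -0.12) was 0.05 above the median of all genes and turned positive under TMM, DESeq2 size factors and the total without Prl and Gh. Scg3 (ENSMUSG00000032181.6, chr9:75643189-75684056), whose product secretogranin III binds chromogranin A and the granule membrane, had 321 and 363 CPM. Its log2 ratio of -0.18 (-0.21 to -0.14) stood at the median of all genes and turned positive under DESeq2 size factors. Chga (ENSMUSG00000021194.5, chr12:102554969-102565028), the gene of chromogranin A, was counted at 354 and 436 CPM. At -0.30 (-0.33 to -0.27) it had the lowest log2 ratio of the 10 genes and was the one that stayed lower in RNA-Best under all 3 other scalings, from -0.11 to -0.17. Chga and Chgb held fractions of reads, as did Pcsk2, Pcsk1n and Pam.

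Of the convertases, Pcsk1 was close to equal in the 2 libraries and Pcsk2 was higher in RNA-Best. Pcsk1 (ENSMUSG00000021587.4, chr13:75089826-75134861) was counted at 88.8 and 93.1 CPM. Its log2 ratio was -0.07 (-0.13 to -0.01) and turned positive under the 3 other scalings. Pcsk2 (ENSMUSG00000027419.9, chr2:143546156-143816285) was counted at 113 and 99.3 CPM, with a log2 ratio of 0.18 (0.13 to 0.24), or 0.36 relative to all genes, and from 0.31 to 0.37 under the 3 other scalings. PC1/3 acts early and PC2 late in the maturation of a precursor. On the opposite strand, 260 bases of Pcsk2 exons overlap the antisense gene Pcsk2os1, with 546 and 322 counts, and the strand setting of the counting is not given in the sources used here. Reads from Pcsk2 and its antisense partner therefore may not be told apart, although that gene held far fewer counts than the 6071 and 4459 of Pcsk2. The melanotrope marker Pax7 was at 6.58 and 10.7 CPM and Pomc at 9550 and 6843 CPM, and 5 of the 6 corticotrope and melanotrope genes were lower in CPM and 3 of the 6 relative to all genes, with summed levels of 9594 and 6895 CPM. Their part in the Pcsk2 ratio was not tested.

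The binding proteins of the convertases differed more from each other than the convertases did. Scg5 (ENSMUSG00000023236.7, chr2:113776362-113829121) encodes 7B2, the chaperone that proPC2 needs to become active. Its level was 1115 CPM against 802 CPM in RNAlater. Its log2 ratio of 0.48 (0.46 to 0.49), a 1.39-fold difference, was the highest of the 10 genes, and its counts were whole. Pcsk1n (ENSMUSG00000039278.10, chrX:7919822-7924410) encodes proSAAS, an inhibitor of PC1/3. Its level was 465 and 468 CPM, and the interval of its log2 ratio (-0.01, -0.04 to 0.02) was the only one among the 10 genes to include 0. Under the other scalings it stood between 0.12 and 0.17, near its value of 0.17 relative to all genes.

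The finishing enzymes lay on either side of 0. Cpe (ENSMUSG00000037852.7, chr8:64592542-64693054) stood at 849 and 775 CPM, with a log2 ratio of 0.13 (0.11 to 0.15), or 0.31 relative to all genes, and whole counts. Pam (ENSMUSG00000026335.16, chr1:97795114-98095646) had 392 and 443 CPM. Its log2 ratio of -0.18 (-0.20 to -0.15) stood at the median of all genes and turned positive under DESeq2 size factors. Pam has 15 annotated transcripts, and 188 bases of its exons overlap B230216N24Rik on the same strand, counted at 604 and 379.

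Ratios between 2 genes within a library do not depend on the scaling, so 7 pairs were compared in this way. The largest difference was that of Scg2 to Scg3. There were 6.04 Scg2 counts per Scg3 count in RNA-Best and 4.38 in RNAlater, a difference of 0.46 in log2 (Wald interval 0.43 to 0.50). There were 2.16 Cpe counts per Pam count in RNA-Best and 1.75 in RNAlater, a difference of 0.31 (0.27 to 0.34). These were the pairs whose first gene gained weight in RNA-Best.

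In the remaining 5 pairs the first gene weighed less in RNA-Best, with an interval that left out 0 in 4 of them. For each Pcsk2 count there were 9.90 Scg5 counts in RNA-Best and 8.08 in RNAlater, and the log2 of Pcsk2 over Scg5 differed by -0.29 (-0.35 to -0.24). Pcsk1 over Pcsk2 was 0.788 in RNA-Best and 0.938 in RNAlater, a difference of -0.25 (-0.33 to -0.17). The count ratio of Pcsk1 to Pcsk1n, the gene of its inhibitor, differed least between the libraries. For each Pcsk1 count there were 5.24 Pcsk1n counts in RNA-Best and 5.02 in RNAlater, with a difference of -0.06 whose interval (-0.12 to 0.01) included 0. For each Chga count there were 18.3 Chgb counts in RNA-Best and 16.2 in RNAlater, and Chga over Chgb differed by -0.18 (-0.21 to -0.15). Chga over Scg3 was 1.10 and 1.20, a difference of -0.12 (-0.17 to -0.08). Per kilobase of the longest transcript, Scg5 exceeded Pcsk2 38.7-fold and 31.6-fold, and Pcsk1n exceeded Pcsk1 12.0-fold and 11.5-fold. By the same measure Chgb exceeded Chga 12.6-fold and 11.1-fold, and Cpe exceeded Pam 4.19-fold and 3.39-fold. The differences of pairs between the libraries were not adjusted for transcript length, with which the log2 ratios of all genes differed. Against the median of genes of similar length, Pcsk1 stood 0.33 above and Pcsk1n 0.08 above. Pcsk2 stood 0.58 above and Scg5 0.41 above, and Cpe and Pam each 0.22 above. These distances depend on the length assigned, as given below.

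**Figure D2:**
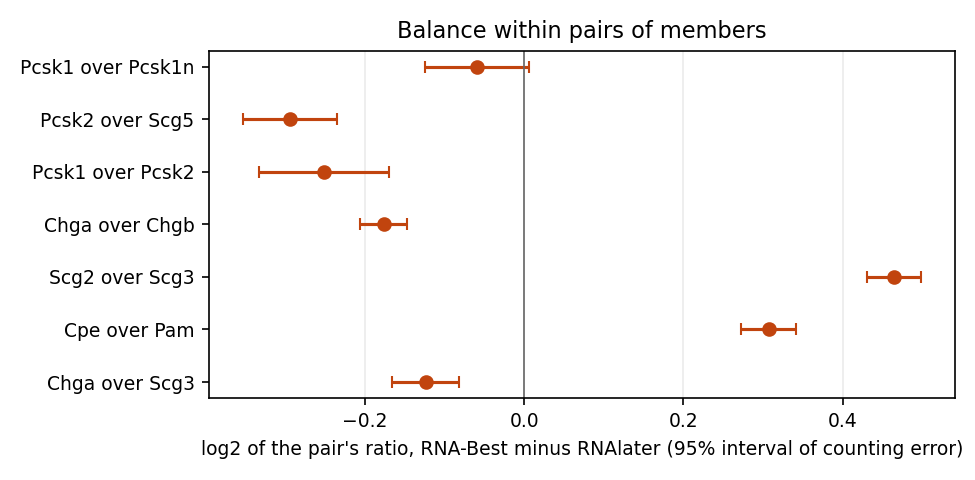
Difference between the libraries in the log2 ratio of 2 genes (horizontal axis, RNA-Best minus RNAlater) for 7 pairs, with 95% Wald intervals of counting error. Scg2 over Scg3 (0.46) and Cpe over Pam (0.31) lie to the right of 0, and the interval of Pcsk1 over Pcsk1n is the one that includes 0.

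The libraries differed with transcript length across all genes, so each gene was set beside all genes of its length class. The median of the log2 ratios stood at 0.07 in the class of 1-2 kb (2715 genes), at -0.09 in that of 2-3 kb (3111 genes) and at -0.40 in that of 4-6 kb (3464 genes). Of the 10 genes, 7 lay above the median of their class, 5 of them above its upper quartile, and 1 lay below its lower quartile. By construction 25% of all genes lie beyond each quartile. With the merged exons or the median transcript as the length, 4 lay above the upper quartile, and Chga was again the 1 gene below the lower quartile under both.

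Pcsk2 was the farthest above its class. With a transcript of 4723 bases, its log2 ratio was 0.58 above the class median of -0.40. Scg5, with 1208 bases, was 0.41 above a class median of 0.07, and Scg2, with 2515 bases, 0.38 above a class median of -0.09. Pcsk1, with 5040 bases, was 0.33 above its class, but 0.20 above with merged exons and 0.072 above with the median transcript length. Cpe and Pam were each 0.22 above, but Pam was 0.17 below with the median transcript length and 0.46 above with merged exons. Pcsk1n stood 0.08 above its class, Chgb 0.03 below and Scg3 0.09 below, all inside the quartiles. Chga, with 1883 bases, was 0.37 below the median of its class. Spearman's rho between length and log2 ratio was -0.0909 across these 10 genes and -0.638 across the 16453 genes with a length. Both are descriptions of the same 2 libraries, and the first, from only 10 genes of 1208 to 5040 bases, is imprecise. It does not show that these genes lack the trend of all genes.

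**Figure D3:**
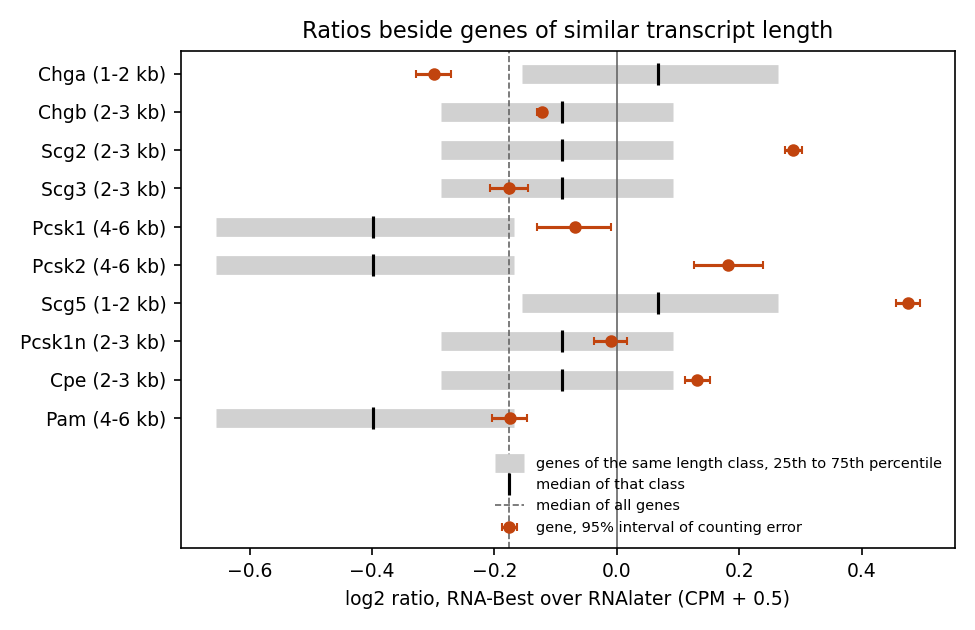
Log2 ratio of RNA-Best to RNAlater (horizontal axis) for each gene, with its 95% interval of counting error, beside the quartile range (grey bar) and median (black tick) of all genes in the same transcript length class. Scg2, Pcsk1, Pcsk2, Scg5 and Cpe lie to the right of the bar, and Chga lies to its left.

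**Figure D4:**
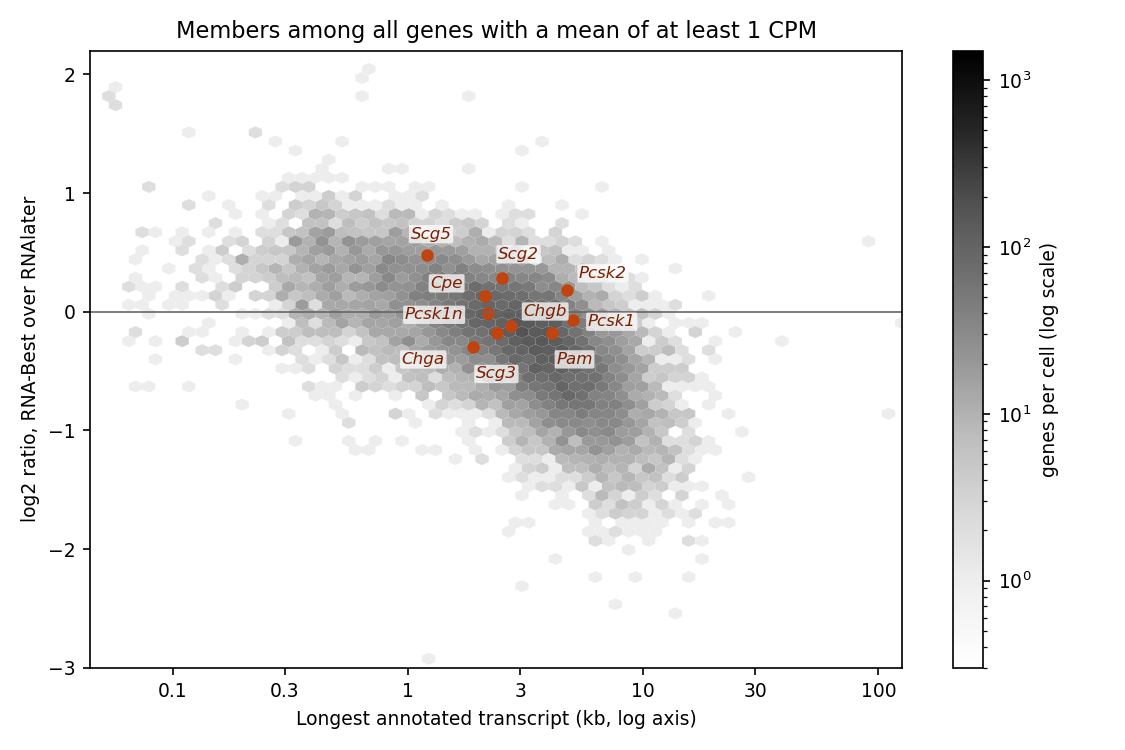
Log2 ratio (vertical axis) against the length of the longest annotated transcript in kb (horizontal log axis), with the density of all genes past the limit of 1 CPM in grey and the 10 genes as points. The cloud slopes down with length, whereas Pcsk2 and Pcsk1, the longest of the 10 at 4723 and 5040 bases, lie along its upper side.

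The other convertases and carboxypeptidases were mostly lower in RNA-Best, and the median length of their transcripts exceeded that of the 10 genes, which was 2.45 kb. Of 7 other proprotein convertases, 6 passed the limit of 1 CPM. All 6 were lower in CPM, with a median log2 ratio of -0.37, a median length of 5.07 kb and 1 of them at least 1.5-fold lower. Over all 16504 genes, 11058 were lower and 18.8% were at least 1.5-fold lower. Relative to all genes 1 of the 6 was higher, and 2 of the 6 lay above the median of their length class. Furin, the convertase of the trans-Golgi network and cell surface, was lowest at -0.60 (43.7 and 66.6 CPM), Pcsk4 highest at -0.17 (3.58 and 4.10 CPM), and Pcsk6 the most abundant at 143 and 197 CPM. Of 6 other carboxypeptidases, 5 passed, with 4 lower, 1 higher, a median of -0.55 and a median length of 3.50 kb. Again 1 lay above the median of all genes and 1 above that of its length class. Cpd, which trims peptides in the trans-Golgi network, was lowest at -1.02 (32.9 and 67.2 CPM), Cpz highest at 0.27 (1.502 and 1.16 CPM, an interval of -0.14 to 0.91), and Cpxm2 the most abundant at 119 and 154 CPM.

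Among granin-like proteins, Vgf, a precursor of several neuropeptides, had 58.7 and 87.4 CPM and a log2 ratio of -0.57. Nucb2, the precursor of nesfatin, had the highest log2 ratio of the 3 at 0.18, with 243 and 215 CPM. Gnas was at 181 and 238 CPM with a log2 ratio of -0.40, and it exceeded Nucb2 in RNAlater. Its count covers the whole locus, which also encodes a G protein alpha subunit, so it gives no value for the granin-like product of that locus. Peptide-modifying enzymes were mixed, with 4 of 6 higher, 4 of 6 above the median of all genes, and a median of 0.04. They ranged from the glutaminyl cyclase paralog Qpctl at -0.30 to the protease cathepsin L (Ctsl), also the most abundant, at 0.24 (464 and 394 CPM).

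Supply of copper and electrons to Pam was covered by 5 genes, of which 3 were lower and 2 higher, with a median of -0.17 close to that of all genes. Atp7a, which pumps copper into the secretory pathway, had the lowest ratio at -1.21 (7.22 and 17.3 CPM), and the granule cytochrome Cyb561, which carries electrons from ascorbate, was both highest and most abundant at 0.21 (92.5 and 80.1 CPM). All 6 genes of granule membrane and biogenesis were lower in CPM, as were 11058 of all 16504 genes, and 4 of the 6 were lower relative to all genes. Their median was -0.32, from Ptprn2 at -0.51 to Ica1 at -0.10, and Ptprn was the most abundant at 303 and 378 CPM. Of 15 proton pump genes that acidify granules, 9 were higher and 6 lower, with a median of 0.06, and 13 of the 15 lay above the median of all genes and 11 above that of their length class. Atp6v1f was highest at 0.72 and Atp6v0a1 lowest at -0.54, while Atp6ap2 was the most abundant at 222 and 235 CPM. The hormone precursors and subunits themselves, the cargo of this pathway, were higher in 7 of 7 cases, against 33.0% of all genes. Their median was 0.45, from Gh at 0.04 to Tshb at 0.73. Their median length was 0.895 kb, and 5 of the 7 lay above the median of their length class.

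**Figure D5:**
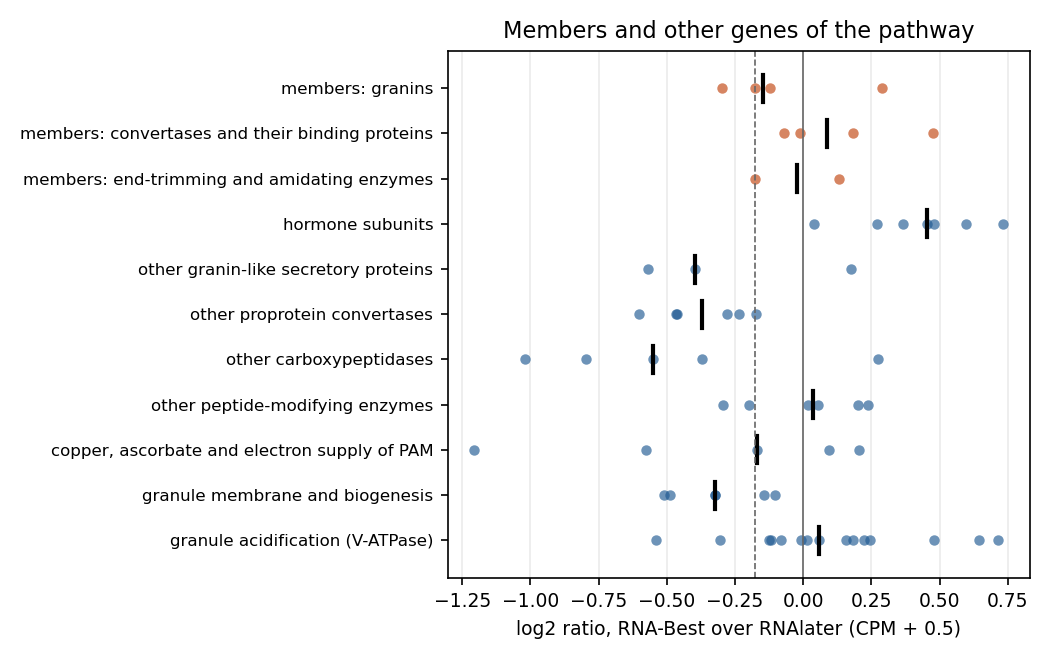
Log2 ratio of RNA-Best to RNAlater (horizontal axis) for each gene past the limit of 1 CPM in 11 groups of the secretory pathway, with the group median as a black bar, 0 as a solid line and the median of all genes (-0.18) as a dashed line. The hormone subunits lie to the right of 0 throughout, and the other proprotein convertases and the genes of granule membrane and biogenesis lie to the left of it, though not all to the left of the dashed line.

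The encoded proteins were compared by translating the longest GENCODE coding sequence of each gene. The 4 granins were rich in acidic residues. Glutamate and aspartate made up 23.2% of residues in chromogranin B, 21.8% in chromogranin A, 19.7% in secretogranin III and 19.1% in secretogranin II, against a median of 11.1% over 21584 mouse proteins and a 95th percentile of 17.6%. The 6 other proteins ranged from 12.6% for Pcsk2 to 14.6% for Scg5. Adjacent pairs of basic residues, the kind of site at which convertases cut, numbered 23, overlapping pairs included, in the 677 residues of chromogranin B and 7 in the 212 residues of Scg5. This is 3.40 and 3.30 per 100 residues, against a median of 1.40 over all proteins. Chromogranin A and secretogranin II each had 9 such pairs and secretogranin III had 7. Their rates were 1.94, 1.46 and 1.49 per 100 residues, so secretogranin II and III lay close to the median. Pcsk2 had 16 pairs, or 2.51 per 100 residues, and among the 10 proteins Pam alone lay below the median. The most abundant granin was therefore also the one with the most such pairs, and no pair counted here was shown to be cut.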

How the data were processed

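Per the labels (submitters' processing notes), the authors used STAR 2.5.1b, featureCounts 1.5.0-p1 and mm10. Libraries were single reads from poly(A) RNA. The deposited values are estimated counts per gene, not normalized: 35.4% (RNA-Best) and 34.9% (RNAlater) of values above 0 are not whole, and the counting option behind this is not given in the sources used here. Whole numbers in both columns were found for 5 of the 10 genes.

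Ensembl identifiers were matched without version to GENCODE M21 on GRCm38, which also gave coordinates and lengths; 46574 of 47069 (98.9%) matched. Counts were scaled to CPM by column total. Log2 ratios used a pseudocount of 0.5 CPM, which understates ratios of low genes. The background was all 16504 genes whose mean reached 1 CPM. Intervals of ratios were exact conditional binomial intervals on rounded counts, without the pseudocount; pairs used Wald intervals from 4 counts. With 1 library per group no test was run. Protein features were translated from transcripts, since no protein table was used here. R 4.3.3 gave other scalings, by TMM (edgeR 4.0.16) and by size factors (DESeq2 1.42.0). The LOWESS span was 0.2 (statsmodels 0.14.6, Python 3.11.15). The log2 ratio of CPM was tested on a simulated pair of libraries with known 2-fold changes, and the other steps were not tested in this way.

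The 10 genes and the gene lists were chosen with earlier results of these data known. All 10 genes are named, and from each pathway list the highest and lowest ratio and the most abundant gene; Gnas, Pax7 and the overlapping genes are named in addition. Of the lists, corticotrope and melanotrope genes had a median log2 ratio of -0.19, somatotrope, lactotrope and thyrotrope genes 0.04, and gonadotrope genes -0.09. Endothelial markers had -0.87, pericyte and fibroblast markers -0.75, posterior lobe markers -0.68, and stem and folliculostellate markers -0.46. The median distances of these 4 lists from the length class were -0.70, -0.40, -0.26 and -0.46. Macrophage markers had -0.15 and a distance of -0.04, and erythroid genes 0.79 and 0.76.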

Additional observations from a re-analysis of the deposited data

How the results depend on the processing

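No paired analysis was possible because the labels number no replicates and a group is a single library, and for the same reason none could be left out. Other scalings turned the median log2 ratio of the 10 genes from -0.04 to 0.13 (TMM), 0.14 (DESeq2 size factors) and 0.088 (total without Prl and Gh), as they moved the median of all genes to -0.015, -0.0036 and -0.058, and the 5 genes with whole counts alone gave 0.13. The genes with a positive ratio then numbered 7, 9 and 7 instead of 4. Under each of the 3, 1 of the 10 genes, Scg5, was at least 1.5-fold higher, against 7.31%, 7.72% and 6.39% of all genes. The share of all genes with a positive ratio was 48.6%, 49.6% and 44.5%. Under TMM, DESeq2 size factors and the total without Prl and Gh, Chgb turned to 0.050, 0.062 and 0.0047, Pcsk1 to 0.10, 0.11 and 0.058, and Pcsk1n, whose interval included 0, to 0.16, 0.17 and 0.12, and under DESeq2 size factors Scg3 turned to 0.0091 and Pam to 0.0093. The distance of the median of the 10 genes from that of all genes, 0.14, was 0.023 when genes of any count entered the comparison.

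The median distance of the 10 genes from their length class, 0.22, was 0.15 with the median transcript length, 0.18 with merged exons and 0.15 from a LOWESS trend. It was 0.28 with the transcript of the longest coding sequence, an alternative chosen after seeing the data. The distance of Chgb turned positive with the median length (0.17), the trend (0.0070) and the coding transcript (0.025), and that of Pam negative with the median length (-0.17). The causes were not tested. The share of counts in the 10 genes was 1.73% (RNA-Best) and 1.58% (RNAlater) without Prl and Gh in the total, and 1.244% and 1.243% without genes of the mitochondrial genome. Rounding moved no pair beyond its interval. For pathway lists, the medians of the copper and electron supply genes (0.0033 and 0.015) and of the macrophage markers (0.017 and 0.028) turned positive under TMM and DESeq2 size factors, and the latter also with a limit of 10 CPM (0.024). The median of the gonadotrope genes, -0.09, turned to 0.079, 0.090 and 0.034 under the 3 scalings and to 0.091 with a limit of 10 CPM.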
